A study of Mus musculus with 4 samples.

Results

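The Fox and Sox genes encode families of transcription factors, and their transcripts were read here in sorted EGFP-expressing cells of mouse testis, with and without laminin staining. Members were the rows of the deposited expression table whose symbol, or a comma-separated part of it, was Fox with a letter from a to s and a number, or Sox with a number. This gave 63 genes of 22802 rows, 44 Fox and 19 Sox. Of these, 8 were listed at 0 in every library, 26 were above 0 but below the filter used for testing, and 29 were tested.

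Cells came from testes of C57BL/6J mice with both mFLE-Cre and a CAG-CAT-EGFP reporter, dispersed at postnatal day 10. The reporter makes EGFP once Cre recombinase has acted, and both populations carry both transgenes. The labels do not spell out what drives mFLE-Cre. There were 2 libraries of EGFP-positive, laminin-negative cells and 2 of EGFP-positive, laminin-positive cells, although the design text of the series calls EGFP weak in the laminin-negative sort. Laminin staining and the level of EGFP cannot be told apart between the populations. The labels do not say whether replicate libraries are from different animals, so p-values measure the spread between these libraries, which may be technical.

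Forkhead proteins share a winged-helix domain that binds DNA, and the letter in a Fox name gives the subfamily. FoxO proteins are phosphorylated by AKT and SGK kinases downstream of insulin and growth factor receptors, which keeps them out of the nucleus. Sox proteins bind the minor groove with an HMG box and bend DNA, and are sorted into groups A to H. In the testis, Sox9 and Sox8 (group E) act in Sertoli cells, Sox3 is known from spermatogonia, and the group F genes Sox7, Sox17 and Sox18 from endothelium. Foxs1, Foxc1 and Foxc2 are known from mesenchymal and vessel wall cells.

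Values are FPKM, which are scaled to transcript length, so levels can be set side by side between genes. The FPKM sums of the libraries ran from 491475 to 548986, and 11794 to 12011 rows reached 1 FPKM. Fragment totals were not used here. Among genes with 1 annotated transcript of 1500 to 6000 nt, the product of FPKM and length in kb had a peak between 0.03 and 0.04 in every library, with 46 to 57 genes against 10 to 12 in the bin below. Read as the worth of 1 fragment, this puts 1 FPKM of a 2 kb transcript at about 56.9 to 59.8 fragments, so members below 0.1 FPKM rest on a few fragments. Markers followed the sorts: 8 of 8 Leydig genes were lower in laminin-positive cells, with sums of 4642 to 4899 against 163 to 209 FPKM, and 8 of 8 smooth muscle and peritubular myoid genes were higher, with sums of 190 to 205 against 5560 to 5612 FPKM. Pericyte markers were higher in 8 of 8 cases, with sums of 66.2 to 68.3 against 344 to 350 FPKM. In bulk libraries, more cells of a type and more RNA per cell cannot be told apart.

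Promoter sequence in RefSeq (GRCm38.p6) was matched for 41 of the 63 members. Those without a window included Foxb1, Foxc2, Foxe1, Foxf1, Foxh1, Foxj1, Foxk1, Foxl1, Foxm1, Foxn2, Foxo4, Foxo6, Foxp2, Foxq1, Foxs1, Sox3, Sox7, Sox9, Sox10, Sox17 and Sox18. Shown are the 250 bases before the start of 3 called members, to set a gene that was lower in laminin-positive cells (Foxa3) beside 2 that were higher (Foxc1 and Sox4). The windows lie at chr13:31806396-31806645 on the plus strand, chr13:28953700-28953949 on the minus strand and chr7:19023540-19023789 on the minus strand. Sequences run 5′ to 3′ along the strand of the gene. Capitals mark, on either strand, the letters CCAAT of the CCAAT box, the letters GGGCGG of the GC box and the letters TATAAA of the TATA box.
Foxc1: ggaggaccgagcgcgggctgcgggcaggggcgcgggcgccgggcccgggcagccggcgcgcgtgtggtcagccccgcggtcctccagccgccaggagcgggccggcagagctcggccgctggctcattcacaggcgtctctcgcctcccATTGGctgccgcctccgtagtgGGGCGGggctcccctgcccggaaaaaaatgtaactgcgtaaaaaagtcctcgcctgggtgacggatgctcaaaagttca
Sox4: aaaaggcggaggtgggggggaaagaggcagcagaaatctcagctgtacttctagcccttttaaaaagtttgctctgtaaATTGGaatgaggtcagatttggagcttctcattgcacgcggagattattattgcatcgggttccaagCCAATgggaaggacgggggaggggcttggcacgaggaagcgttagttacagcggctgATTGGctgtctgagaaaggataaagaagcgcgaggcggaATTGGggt
Foxa3: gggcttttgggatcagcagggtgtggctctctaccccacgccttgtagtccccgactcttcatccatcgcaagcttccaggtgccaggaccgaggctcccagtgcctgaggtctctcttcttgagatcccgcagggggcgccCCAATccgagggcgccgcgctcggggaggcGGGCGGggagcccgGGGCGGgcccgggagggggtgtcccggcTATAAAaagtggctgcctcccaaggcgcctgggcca
The Sox4 window held 4 CCAAT boxes and no GC box, at a GC content of 50.8%. Foxc1 had 1 CCAAT box and 1 GC box at 70.8% GC, and Foxa3 had 1 CCAAT box, 2 GC boxes and 1 TATA box at 68.8% GC. The CCAAT box was present in windows of 22 of the 41 members and in 33.8% of all 32851 windows of this length. The GC box was present in 29 of the 41 and in 32.7% of all windows, and the TATA box in 4 of the 41 and in 12.4%. The median GC content was 63.2% for members and 52.4% for all windows. The forkhead letters TGTTTAC were found in windows of 2 of the 41 members, against 3.17% of all windows, and the Sox letters AACAAT also in 2, against 9.42%. Of the members, 4 have more than 1 window, and a match describes letters in a window and not a bound site.

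Laminin-positive was compared with laminin-negative on log2(FPKM + 1) with limma, adjusted over the 12348 rows with at least 1 FPKM in at least 2 libraries. Among the 29 tested members, 17 were higher in laminin-positive cells and 3 lower, and 9 did not pass. Over all tested rows, 26.6% were called higher and 26.3% lower, 52.9% in all. Both laminin-positive libraries lay above both laminin-negative ones in 19 of the 29, against 39.4% of all tested rows, and the reverse held in 7, against 37.8%. By family, 13 of 20 tested Fox genes were higher and 2 lower, and 4 of 9 tested Sox genes were higher and 1 lower. The median log2 difference was 0.35 over the tested members and 0.01 over all tested rows. These counts hold for members that passed the filter, where Foxj1 passed only through the laminin-positive libraries and Foxa3 only through the laminin-negative ones. Without this pair, 16 of 27 were higher and 2 lower. With a variance for each gene alone, which leaves 2 residual degrees of freedom, limma called 3 Fox genes (Foxs1, Foxo4 and Foxp1) and 1 Sox gene (Sox3) higher, and 0 Fox genes and 1 Sox gene (Sox18) lower. Over all 12348 tested rows that fit called 1346 higher and 1211 lower. At an unadjusted p under 0.05 it had 8 of 20 Fox genes higher and 2 lower. For Sox genes it had 3 of 9 higher and 1 lower. The share of all rows at that unadjusted threshold is not given here, so these counts have no background beside them.

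The higher members with a log2 difference of 1 or more were 4 (Foxs1, Foxc2, Foxc1 and Sox3), against 7.29% of all tested rows. The lower members that differed by that much were Sox18, Foxo6 and Foxa3, against 5.89% of all tested rows. The direction of Foxa3 was fixed by the filter, so it adds nothing to this count, which leaves Sox18 and Foxo6. At the other end, 9 of the 17 higher members had a log2 difference under 0.5, with ratios of mean FPKM from 1.19 to 1.49.

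**Figure D1:**
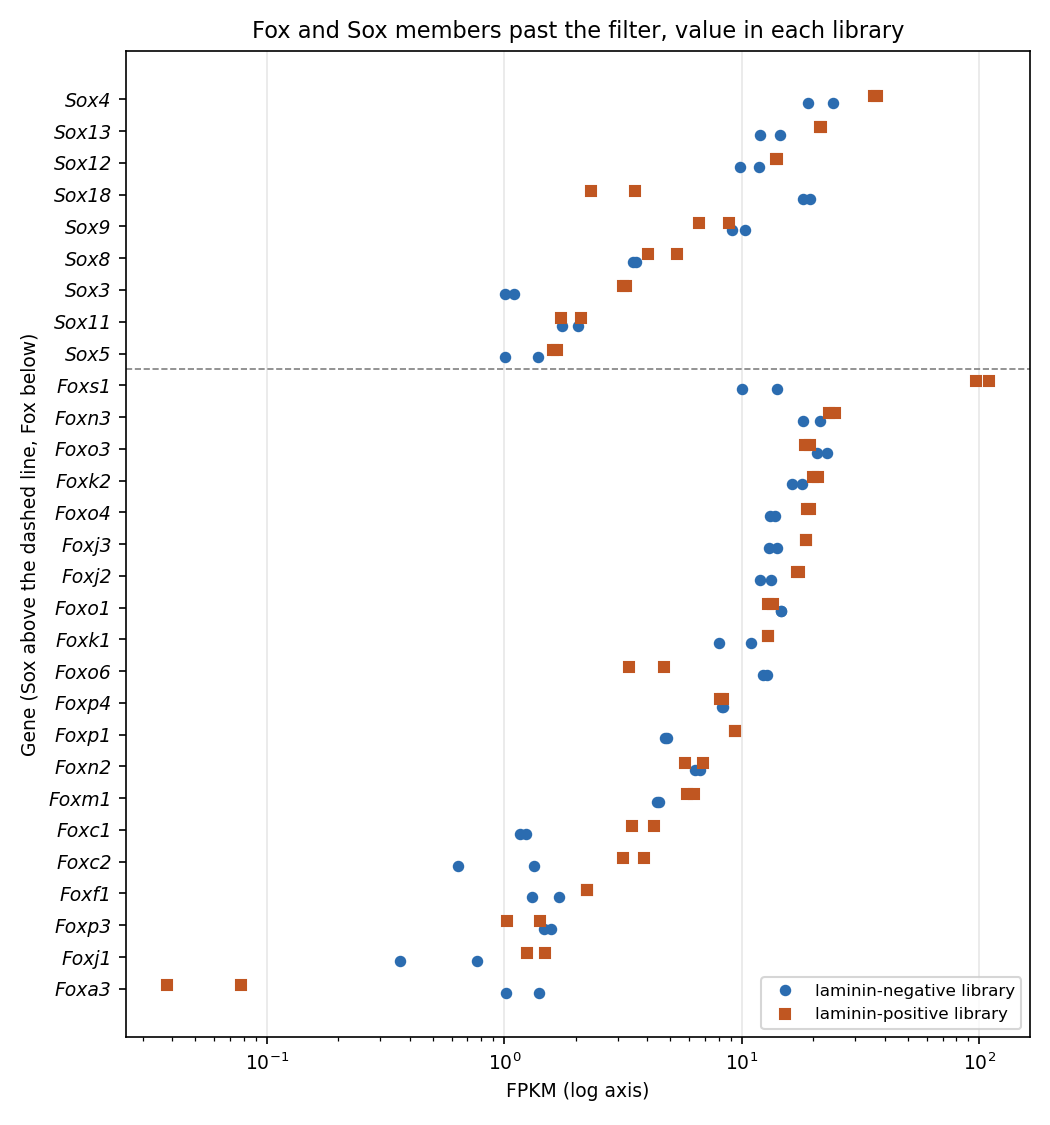
FPKM on a log axis for each of the 29 tested members, with 1 circle per laminin-negative library and 1 square per laminin-positive library, Sox genes above the dashed line and Fox genes below it. Foxs1 lies at 96.6 and 109 FPKM in the laminin-positive libraries. Sox18, Foxo6 and Foxa3 have their squares left of their circles, as do, by less, Foxo1, Foxo3, Sox9 and the Foxp3 row.

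**Figure D2:**
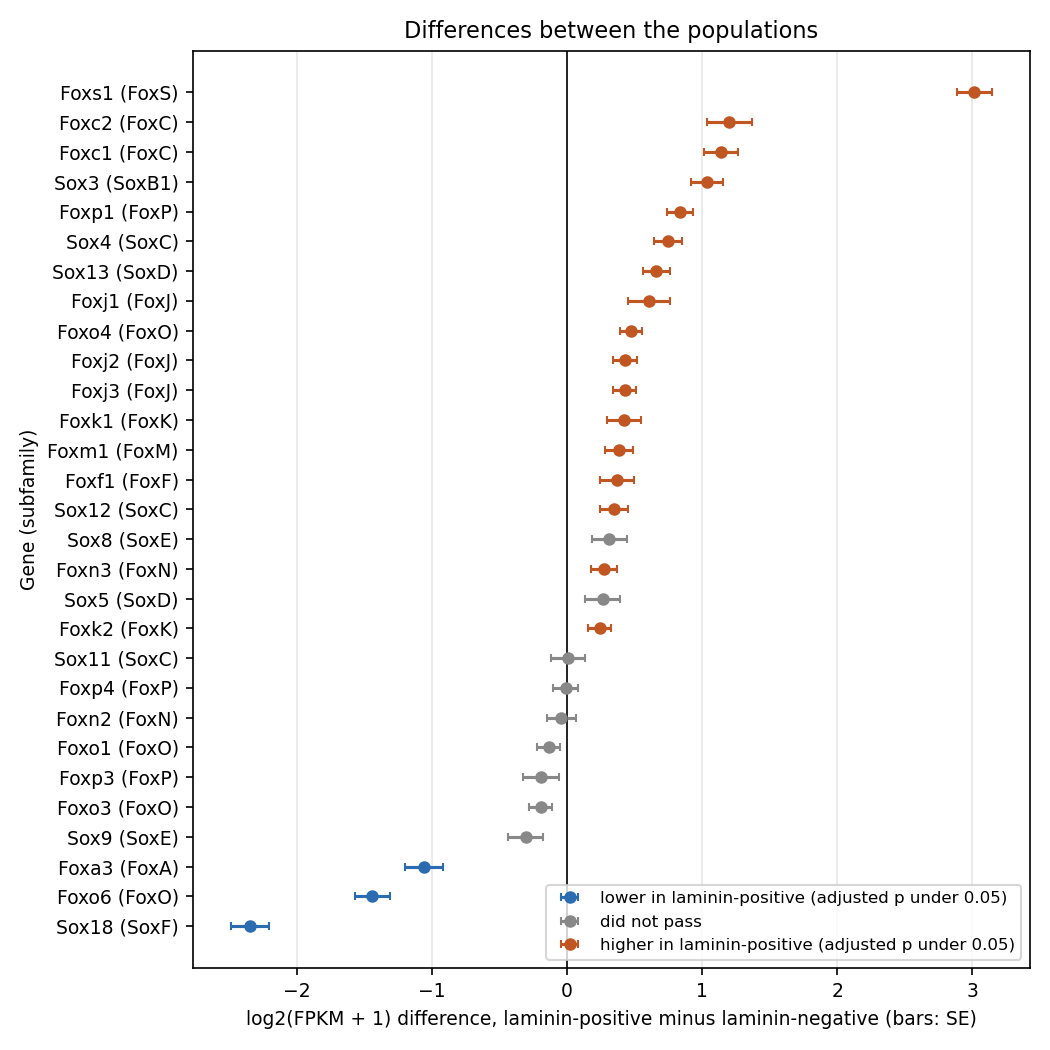
Difference of each tested member on the log2(FPKM + 1) scale, laminin-positive minus laminin-negative, with SE bars, ordered by size, and colour giving the limma call at an adjusted p of 0.05. Foxs1 stands at 3.01 and Sox18 at −2.34, and most other members lie between −0.5 and 1.

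Foxs1, a single-subfamily forkhead gene known from cells around testicular vessels, had the largest difference of the tested members on the log2(FPKM + 1) scale. By ratio of means, Foxa3, Sox6 and Foxq1 differed more, at levels near or below 1 FPKM. It stood at 9.99 and 14.02 FPKM in the laminin-negative libraries and at 109 and 96.6 FPKM in the laminin-positive libraries. The populations lay far apart, and Foxs1 went from rank 12 to rank 1 among the 63 members by mean level. The means were 12.004 ± 2.85 and 103 ± 9.09 FPKM (SD, n = 2), an 8.58-fold difference (log2 difference 3.01, SE 0.13, limma adjusted p = 1.40e-08). The gene is at chr2:152931898-152933208 (GRCm38) on the minus strand. The call held in every alternative run, with a highest adjusted p of 0.0399. Foxs1 made up 5.49% and 7.98% of the summed Fox FPKM in laminin-negative libraries and 36.1% and 33.2% in laminin-positive libraries. Without it, the Fox sum was 172 and 162 FPKM in laminin-negative and 193 and 195 FPKM in laminin-positive libraries. The smooth muscle and pericyte sums given above were higher in the same libraries, and their part in the Foxs1 difference was not tested.

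Both FoxC genes, which encode closely related factors of mesenchyme and vessels, were higher in laminin-positive cells. Foxc1 was at 1.23 and 1.17 FPKM in laminin-negative and at 3.44 and 4.28 FPKM in laminin-positive libraries. Its log2 difference was 1.14 (SE 0.13, limma adjusted p = 2.41e-05), a 3.22-fold ratio of means. Foxc2 was at 0.641 and 1.33 FPKM in laminin-negative and at 3.87 and 3.16 FPKM in laminin-positive libraries (log2 difference 1.20, SE 0.17, limma adjusted p = 0.000143). For each gene the laminin-positive libraries lay above the laminin-negative ones, at a level of a few FPKM. With a variance for each gene alone the calls were lost, at adjusted p = 0.0538 for Foxc1 and 0.117 for Foxc2.

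The FoxC genes lie in 2 clusters of Fox genes, on chromosome 13 (Foxq1, Foxf2 and Foxc1) and on chromosome 8 (Foxf1, Foxc2 and Foxl1). In each of the 6 genes both laminin-positive libraries lay above both laminin-negative libraries, which was the case for 36.3% of all rows above 0. Foxf1, a mesenchymal target of Hedgehog signalling, was at 1.31 and 1.70 FPKM in laminin-negative and at 2.24 and 2.23 FPKM in laminin-positive libraries (limma adjusted p = 0.0288). Leaving out laminin-negative replicate 1 or either laminin-positive library ended the call, as did quantile normalization and testing with no filter. The Foxf1 call was also lost with a variance for each gene alone. Gm27530 overlaps Foxf1 exons on the opposite strand. Foxq1 averaged 0.0719 and 0.655 FPKM in laminin-negative and laminin-positive cells, Foxl1 0.0835 and 0.156 FPKM, and Foxf2 was listed at 0 in both laminin-negative libraries and averaged 0.0349 FPKM in laminin-positive cells. These 3 were below the filter and were not tested. Values of Foxf2 and Foxl1 near or below 0.1 FPKM rest on a few fragments, so the order of their libraries is uncertain.

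FoxO genes, the forkhead factors under insulin and AKT control, did not move together. Foxo4 was higher in laminin-positive cells, Foxo6 was lower, and Foxo1 and Foxo3 did not pass the test. Foxo4 was at 13.8 and 13.2 FPKM in laminin-negative and at 18.9 and 19.4 FPKM in laminin-positive libraries. Its libraries did not overlap between populations (log2 difference 0.48, SE 0.08, limma adjusted p = 0.000658). Foxo6, the member of the subfamily known mainly from brain, was at 12.8 and 12.2 FPKM in laminin-negative and at 4.71 and 3.35 FPKM in laminin-positive libraries. Its mean was 3.11-fold lower in laminin-positive cells (log2 difference −1.44, SE 0.13, limma adjusted p = 4.59e-06). That call was lost with a variance for each gene alone, at adjusted p = 0.0672.

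Foxo3 had the highest mean of all members in laminin-negative cells, at 22.9 and 20.7 FPKM, and was at 19.3 and 18.4 FPKM in laminin-positive libraries. Its log2 difference of −0.19 (SE 0.09) did not pass (limma adjusted p = 0.0788), although it did without laminin-negative replicate 2 (0.0413). Foxo1 was at 14.6 FPKM in each laminin-negative library and at 12.9 and 13.5 FPKM in laminin-positive libraries (log2 difference −0.14, SE 0.08, limma adjusted p = 0.203). An antisense transcript gene, Gm20402, overlaps Foxo1 exons, and the strand setting of the counting is unknown here. Summed over the 4 genes, FoxO transcripts were at 64.1 and 60.7 FPKM in laminin-negative and 55.8 and 54.7 FPKM in laminin-positive libraries.

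Genes of the pathway above FoxO were split. Of 16 tested genes for insulin and IGF receptors, their substrates, PI3-kinase subunits, and AKT and SGK kinases among others, 8 were higher in laminin-positive cells and 6 lower. Irs2, an insulin receptor substrate, rose from 24.3 ± 1.27 to 58.0 ± 8.46 FPKM. Pik3r3, a regulatory PI3-kinase subunit, rose from 1.98 ± 0.202 to 5.92 ± 0.474 FPKM. Its relative Pik3r2 fell from 67.5 ± 4.81 to 31.5 ± 2.49 FPKM. Akt1 fell from 148 ± 0.0247 to 83.0 ± 0.328 FPKM and the receptor gene Igf1r from 19.9 ± 4.05 to 9.83 ± 0.116 FPKM. The median of the list was a log2 difference of 0.23.

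Genes known as FoxO targets were split as well, with 5 of 19 tested higher, 8 lower and a median log2 difference of −0.04. Ubiquitin ligase genes of muscle atrophy rose most within the list: Fbxo32 was at 5.38 ± 1.20 and 83.9 ± 12.4 FPKM, a 15.6-fold difference, and Trim63 at 1.08 ± 0.696 and 13.4 ± 0.280 FPKM. Smooth muscle markers were higher in the same libraries, and their part in these differences was not tested. Bcl2l11, which promotes cell death, rose from 1.93 ± 0.0766 to 3.68 ± 0.974 FPKM. The cell cycle inhibitor gene Cdkn1a fell from 23.4 ± 0.0913 to 5.87 ± 0.907 FPKM, Cited2 from 106 ± 4.64 to 42.4 ± 0.548 FPKM, and the zinc finger gene Klf2 from 589 ± 28.9 to 279 ± 6.58 FPKM. FoxO activity depends on where the protein is in the cell and was not measured here.

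**Figure D3:**
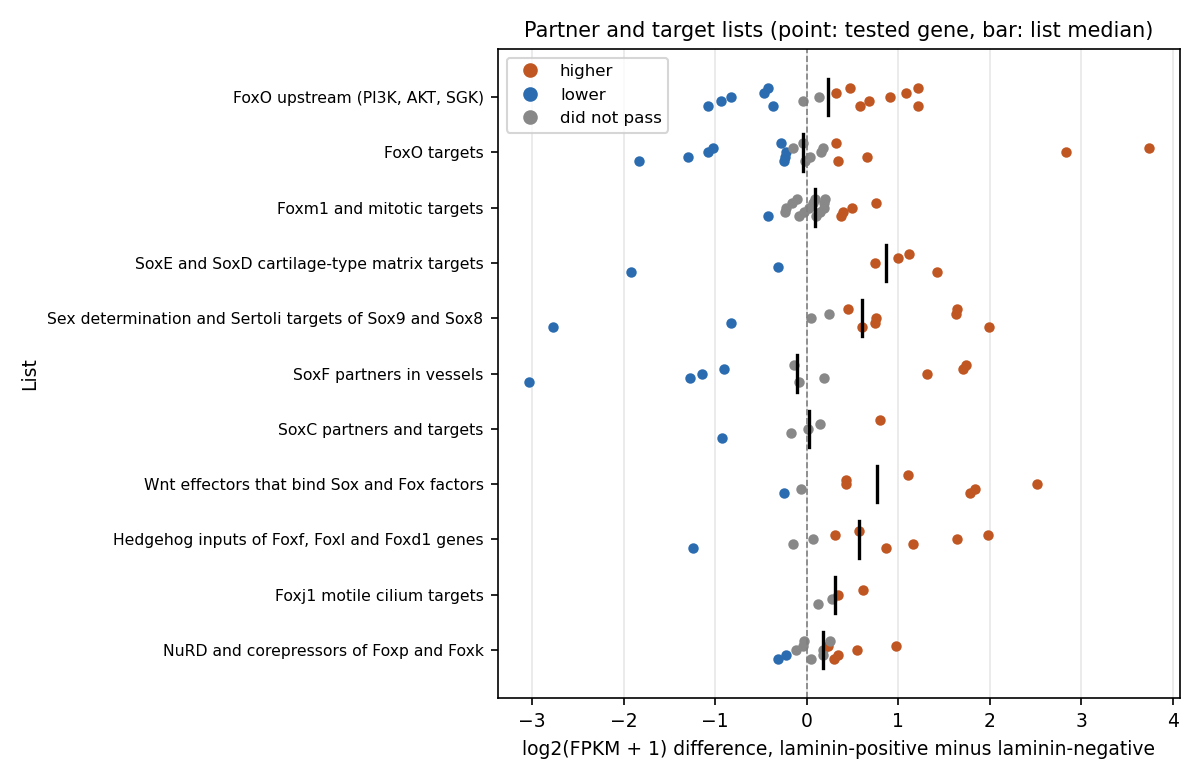
Difference on the log2(FPKM + 1) scale for each tested gene of 11 lists of partners, regulators and targets of Fox and Sox factors, with colour giving the limma call and a black bar the list median. The FoxO target list spans the widest upper range, led by Fbxo32 and Trim63, while its median lies at −0.04.

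FoxP proteins form dimers and mostly repress. Foxp1 rose, with 4.73 and 4.86 FPKM in laminin-negative and 9.34 and 9.40 FPKM in laminin-positive libraries (1.95-fold, log2 difference 0.84, SE 0.10, limma adjusted p = 3.18e-05). The libraries of each population were close to each other, and the call held in every alternative run. Genes Gm20696 and Gm49348 overlap Foxp1 exons on the same strand. Foxp4 averaged 8.27 and 8.21 FPKM and did not pass (log2 difference −0.01, SE 0.09, limma adjusted p = 0.941). Foxp3, known from regulatory T cells, stands in a row merged with Ppp1r3fos, so its own level is unknown, and that row averaged 1.52 and 1.22 FPKM. The T cell genes Cd3e and Cd3g were listed at 0 in every library. Foxp2 averaged 0.00923 and 0.0507 FPKM. Of 14 tested genes of the NuRD complex and of corepressors that FoxP and FoxK proteins bind, 5 were higher and 2 lower, with a median log2 difference of 0.18. The corepressor gene Ctbp2 rose from 18.6 ± 1.05 to 37.6 ± 2.19 FPKM, Chd3 from 25.5 ± 5.12 to 37.4 ± 1.20 FPKM and Sin3a from 12.3 ± 0.116 to 15.9 ± 0.724 FPKM. Gatad2a fell from 21.6 ± 1.501 to 17.1 ± 1.16 FPKM and Sin3b from 105 ± 2.85 to 90.04 ± 2.89 FPKM.

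Foxj2, Foxj3 and both FoxK genes were higher in laminin-positive cells. Foxj3 was at 13.04 and 14.1 FPKM in laminin-negative and 18.6 FPKM in each laminin-positive library (log2 difference 0.43, SE 0.08, limma adjusted p = 0.00161). Foxj2 was at 13.3 and 11.9 against 17.02 and 17.5 FPKM (difference of 0.43 on the log2 scale with SE 0.09, limma adjusted p = 0.00223), and antisense gene Gm26826 overlaps its exons. Their ratios of means were both 1.37. With a variance for each gene alone these calls were lost, at limma adjusted p = 0.0592 for Foxj3 and 0.0884 for Foxj2. Foxj1, the regulator of motile cilia, was near the filter at 0.769 and 0.364 against 1.25 and 1.49 FPKM. Of 14 listed motile cilium genes found in the table, 4 were tested and 2 were higher.

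Foxk2 and Foxk1, which encode repressors that bind many metabolic and autophagy genes, were both called higher. Foxk2 was at 17.9 and 16.3 FPKM in laminin-negative and at 20.9 and 19.9 FPKM in laminin-positive libraries (log2 difference 0.24, SE 0.09, limma adjusted p = 0.0341). Foxk1 averaged 9.46 ± 2.06 and 12.9 ± 0.0723 FPKM. Foxn3, a checkpoint-related forkhead gene, was at 21.4 and 18.05 FPKM in laminin-negative and at 23.2 and 24.7 FPKM in laminin-positive libraries (log2 difference 0.27, SE 0.09, limma adjusted p = 0.0321). These 3 calls were lost with no filter and without laminin-negative replicate 2, those of Foxk2 and Foxn3 also without laminin-positive replicate 2, and that of Foxk2 also without laminin-positive replicate 1. The calls of Foxk2 and Foxn3 were lost with no intensity trend as well. With a variance for each gene alone, limma called none of Foxk1, Foxk2 and Foxn3. Foxn2 averaged 6.51 and 6.31 FPKM and did not pass.

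Foxm1, the forkhead activator of mitotic genes, stands in a row merged with 4933413G19Rik. That row averaged 4.44 ± 0.0713 and 6.10 ± 0.295 FPKM (limma adjusted p = 0.00914), and did not pass when laminin-positive replicate 1 was left out. The call of that row was also lost with a variance for each gene alone. Of 19 tested Foxm1 partners and mitotic targets, 4 were higher and 1 lower, and 14 did not pass. Cdc25b rose from 5.52 ± 0.339 to 10.1 ± 0.665 FPKM, Nek2 from 2.11 ± 0.0506 to 3.42 ± 0.746 FPKM and Lin9 from 2.195 ± 0.566 to 3.10 ± 0.119 FPKM, while cyclin gene Ccnb2 fell from 14.2 ± 0.874 to 10.4 ± 0.787 FPKM. The proliferation marker Mki67 was at 4.67 ± 0.814 and 4.74 ± 0.0865 FPKM.

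Foxa3 encodes a forkhead factor of liver that has also been described in Leydig cells. It was at 1.02 and 1.40 FPKM in laminin-negative and at 0.0781 and 0.0381 FPKM in laminin-positive libraries. The populations did not overlap. Foxa3 reached the filter through its high population only, so its call is not used as support, and it was lost with a variance for each gene alone (limma adjusted p = 0.0585). The laminin-positive values rest on few fragments, so the 20.8-fold ratio of means is uncertain. The Leydig markers were lower in the same libraries, and their part in this difference was not tested. Foxa1 and Foxa2 stayed at or below 0.114 FPKM in every library.

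Sox18 fell by more than any other tested member on the log2(FPKM + 1) scale, while Foxa3 had the larger ratio of means. This group F gene is best known from endothelium and lymphatic vessels. It was at 18.1 and 19.4 FPKM in laminin-negative and at 3.54 and 2.32 FPKM in laminin-positive libraries. It ranked 4 among the 63 members in laminin-negative cells and 23 in laminin-positive cells, and the populations lay far apart. The means were 18.7 ± 0.936 and 2.93 ± 0.861 FPKM, a 6.39-fold difference (log2 difference −2.34, SE 0.14, limma adjusted p = 1.64e-07). The call held in every alternative run, with a highest adjusted p of 0.0479. Sox18 lies at chr2:181669836-181671640 (GRCm38) on the minus strand. It made up 20.6% and 25.2% of the summed Sox FPKM in laminin-negative libraries and 3.62% and 2.49% in laminin-positive libraries. The other group F genes were near 0: Sox7 averaged 0.117 and 0.149 FPKM, and Sox17 was listed at 0 in both laminin-negative libraries and averaged 0.0889 FPKM in laminin-positive cells.

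Endothelial markers were read in the same libraries. In laminin-negative cells Tie1 was listed at 0, and Kdr, Erg, Pecam1 and Vwf averaged 0.0620, 0.0537, 0.133 and 0.0743 FPKM. There Cldn5, Esam and Emcn averaged 0.142, 0.373 and 0.743 FPKM. Tek and Egfl7 were higher, at 2.82 and 4.54 FPKM in laminin-negative cells, and averaged 0.731 and 4.90 FPKM in laminin-positive cells. Of 11 endothelial markers, 5 were tested, 2 were higher (Emcn and Esam) and 2 lower (Cdh5 and Tek) in laminin-positive cells. Emcn and Esam passed the filter only through laminin-positive libraries and Tek only through laminin-negative ones, which fixed their direction. The sum of the list was 175 to 182 FPKM in laminin-negative and 25.9 to 27.4 FPKM in laminin-positive libraries. In laminin-negative libraries nearly all of it was Cdh5, the gene of VE-cadherin, which stood at 169 ± 5.58 and 9.57 ± 0.453 FPKM. Leaving Cdh5 out, a choice made after its values were seen, the sums were 8.54 to 9.34 and 16.6 to 17.5 FPKM. Of 4 lymphatic markers, Pdpn alone was tested and fell from 181 ± 13.1 to 77.7 ± 1.55 FPKM, and Prox1, Flt4 and Lyve1 averaged at most 0.838 FPKM in either population. The Leydig sums given above were also lower in laminin-positive libraries. The part of endothelial or Leydig RNA in the Sox18 difference was not tested.

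**Figure D4:**
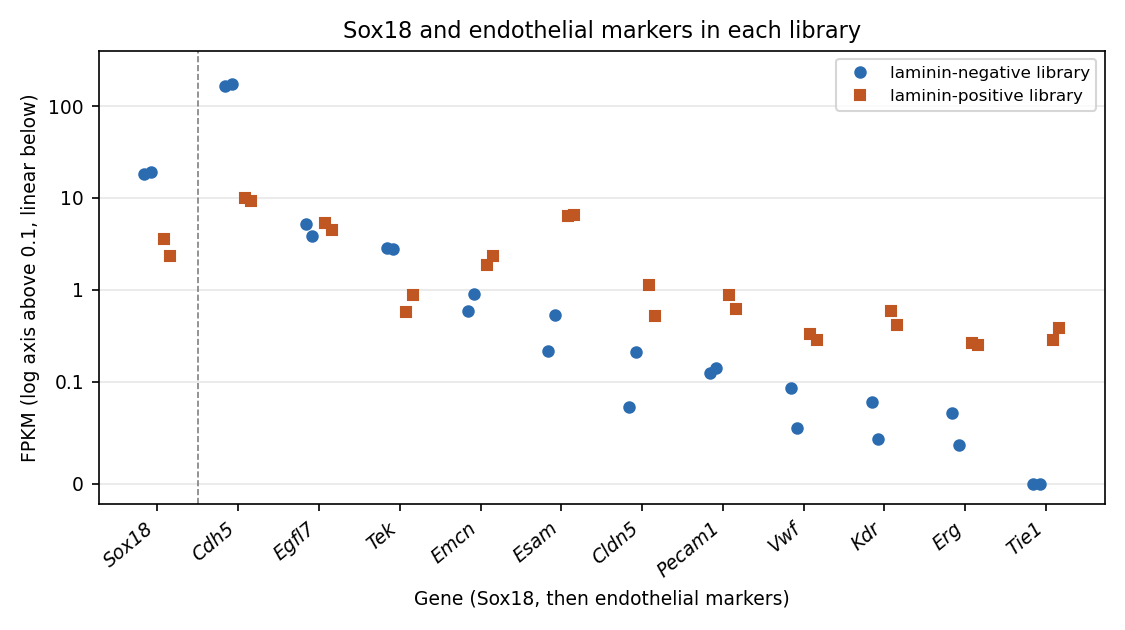
FPKM of Sox18 and of 11 endothelial markers in each library, on an axis that is logarithmic above 0.1 FPKM and linear below, with circles for laminin-negative and squares for laminin-positive libraries. Sox18 and Cdh5 are high in the laminin-negative libraries, where Pecam1, Kdr, Erg and Tie1 lie near 0 and Tek and Egfl7 average 2.82 and 4.54 FPKM.

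Genes that work with SoxF factors in vessels went both ways, with 3 of 10 tested higher and 4 lower (median log2 difference −0.11). Among the called genes, Efnb2 and Notch4 passed the filter only through laminin-positive libraries and Tek only through laminin-negative ones, which fixed their direction. The arterial gene Efnb2 rose from 0.458 ± 0.00637 to 3.88 ± 0.0675 FPKM, Notch4 from 0.536 ± 0.160 to 4.02 ± 0.0703 FPKM and Mef2c from 6.07 ± 0.372 to 16.6 ± 0.563 FPKM. The coreceptor gene Nrp2 fell from 17.6 ± 2.83 to 1.26 ± 0.0267 FPKM, Vegfa from 32.2 ± 1.68 to 12.7 ± 0.668 FPKM and Nrp1 from 59.5 ± 0.151 to 31.5 ± 1.67 FPKM.

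Group C genes, which encode activators of progenitor cells, held the highest Sox level. Sox4 was at 24.1 and 18.9 FPKM in laminin-negative and at 36.0 and 37.2 FPKM in laminin-positive libraries. It ranked second among members in both populations and was 1.70-fold higher in laminin-positive cells (log2 difference 0.75, SE 0.11, limma adjusted p = 0.000148). An antisense gene, Gm26735, overlaps its exons. Sox12 was at 11.8 and 9.81 against 14.1 and 13.9 FPKM (a difference of 0.35 ± 0.10 SE on the log2 scale, limma adjusted p = 0.0145). With a variance for each gene alone, limma called neither Sox4 (adjusted p = 0.113) nor Sox12 (adjusted p = 0.191). Sox12 did not pass with no filter, nor when laminin-negative replicate 2 or laminin-positive replicate 1 was left out. Sox11 averaged 1.90 ± 0.214 and 1.92 ± 0.251 FPKM, its libraries overlapped, and it did not pass (log2 difference 0.01, SE 0.13, limma adjusted p = 0.956). Of 5 tested SoxC partners and targets, Marcksl1 rose from 89.3 ± 1.48 to 157 ± 3.80 FPKM, Tubb3 fell from 11.7 ± 3.62 to 5.66 ± 1.55 FPKM and 3 did not pass.

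In group D, whose proteins lack an activation domain and modulate other Sox factors, Sox13 was at 14.4 and 11.9 FPKM in laminin-negative and at 21.5 and 21.2 FPKM in laminin-positive libraries. The libraries did not overlap (1.62-fold, log2 difference 0.66, SE 0.10, limma adjusted p = 0.000224). That call was lost with a variance for each gene alone (limma adjusted p = 0.0958). Sox5 averaged 1.20 ± 0.274 and 1.63 ± 0.0422 FPKM and did not pass (limma adjusted p = 0.118), except without laminin-negative replicate 1 (0.0385). Antisense gene Sox5os1 overlaps its exons. Sox6, below the filter, was at 0.0385 and 0.0557 FPKM in laminin-negative and at 0.641 and 0.520 FPKM in laminin-positive libraries.

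Sox9, which drives Sertoli cell fate, and its relative Sox8 showed values on opposite sides of 0, and neither passed. Sox9 was at 10.3 and 9.08 FPKM in laminin-negative and at 8.81 and 6.61 FPKM in laminin-positive libraries (log2 difference −0.31, SE 0.13, limma adjusted p = 0.0674). It was called lower under quantile normalization, with the replicate block and without laminin-positive replicate 1, and adjusted p-values over all alternatives spanned 0.00917 to 0.542. Sox8 averaged 3.54 ± 0.0825 and 4.68 ± 0.944 FPKM (a difference of 0.31 ± 0.13 SE on the log2 scale, limma adjusted p = 0.0645), and antisense gene 2810468N07Rik overlaps its exons. Sox8 passed with equal FPKM sums and without laminin-positive replicate 2. Sox10, the group E gene of Schwann cells, averaged 0.0287 and 0.115 FPKM.

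Sertoli genes were read beside Sox9. Of 10 Sertoli markers, a list that includes Sox9 itself, 8 were tested, 6 were higher in laminin-positive cells and 1, Clu, was lower. Amh, Dhh, Cst9 and Tsx passed the filter only through the laminin-positive libraries, which fixed their direction. The list summed to 144 to 150 FPKM in laminin-negative and 120 to 154 FPKM in laminin-positive libraries, and without Clu, a choice made after its values were seen, to 13.2 to 14.1 and 43.2 to 56.0 FPKM. Of 11 tested genes of sex determination and Sox9 or Sox8 regulation, 7 were higher and 2 lower (median log2 difference 0.60). Amh, Dhh and Dmrt1 are in both lists, so the counts are not independent. In this list Amh, Dhh and Ptgds passed the filter only through laminin-positive libraries, and Rspo1 only through laminin-negative ones. Amh, a direct Sox9 target in Sertoli cells, was at 0.711 ± 0.0651 and 5.89 ± 1.55 FPKM, and Dmrt1 at 1.11 ± 0.114 and 5.60 ± 0.375 FPKM. Cyp26b1, which degrades retinoic acid, rose from 566 ± 79.2 to 956 ± 38.1 FPKM. Rspo1, a Wnt activator, fell from 8.17 ± 0.948 to 0.340 ± 0.00764 FPKM, and Nr0b1 fell from 5.99 ± 0.886 to 2.94 ± 0.662 FPKM. Matrix genes known as targets of SoxE and SoxD factors in cartilage were higher in 4 of 6 tested cases and lower in 2, with a median log2 difference of 0.87. Acan and Matn4 passed the filter only through the laminin-positive libraries and Col9a1 only through the laminin-negative ones, which fixed their direction. Col9a2 rose from 2.43 ± 0.273 to 8.19 ± 0.246 FPKM and Col11a1 from 3.75 ± 0.598 to 6.93 ± 0.733 FPKM, while Hapln1 fell from 17.9 ± 1.46 to 14.2 ± 1.51 FPKM. Col9a1, below the level set for naming and chosen after its values were seen, had the largest difference of that list, from 2.85 ± 0.311 to 0.0175 ± 0.0118 FPKM.

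Sox3, a group B1 gene on the X chromosome known from spermatogonia, was at 1.10 and 1.01 FPKM in laminin-negative and at 3.17 and 3.27 FPKM in laminin-positive libraries. The replicates of each population were close together (3.05-fold, log2 difference 1.04, SE 0.12, limma adjusted p = 2.65e-05). The call held in every alternative run. Germ cell markers were higher in 7 of 9 tested cases in the same libraries, against 26.6% of all tested rows. Among them were the spermatogonial gene Zbtb16 at 2.17 ± 0.346 and 6.66 ± 0.0996 FPKM and Ddx4 at 0.732 ± 0.252 and 2.71 ± 0.0307 FPKM. Ddx4 and Stra8 passed the filter only through the laminin-positive libraries, which fixed their direction. The list summed to 51.2 to 52.2 FPKM in laminin-negative and 33.8 to 34.1 FPKM in laminin-positive libraries. Kit, which Leydig cells also express, fell from 38.0 ± 0.896 to 2.11 ± 0.388 FPKM. Without Kit, a choice made after its values were seen, the list summed to 12.5 to 14.9 and 31.7 to 31.9 FPKM. The part of germ cell RNA in the Sox3 difference was not tested. Sox1 was listed at 0 in every library, and Sox2 averaged 0.00741 and 0.0232 FPKM.

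Of the 26 members that were above 0 but below the filter, both laminin-positive libraries lay above both laminin-negative ones in 18 and the reverse held in 1. Among the 5907 rows of this kind in the table these shares were 29.6% and 17.7%. A value of at least 0.5 FPKM in a library was reached by 4 of the 26, namely Foxd2, Foxq1, Sox6 and Foxr1. Foxd2 was nearest the filter, at 0.288 and 0.381 FPKM in laminin-negative and at 1.09 and 0.867 FPKM in laminin-positive libraries. The second-highest values just below the filter were 0.867 FPKM for Foxd2, 0.620 for Foxq1 and 0.520 for Sox6, and those just above it were 1.02 for Foxa3, 1.25 for Foxj1 and 1.47 for the Foxp3 row. Foxd1, a stromal forkhead gene, averaged 0.0930 and 0.423 FPKM. Foxl2, the ovarian forkhead factor, stayed at or below 0.134 FPKM. The 8 members listed at 0 in every library were Foxb2, Foxd4, Foxe1, Foxi1, Foxi2, Foxn1, Sox1 and Sox14.

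Lists of Wnt and Hedgehog genes were also read. Wnt effectors that bind Sox or Fox proteins, with their target genes, were higher in 6 of 8 tested cases and lower in 1 (median log2 difference 0.77). The Wnt inhibitor genes Apcdd1, Nkd1 and Nkd2 rose, from 13.04 ± 1.06 to 79.3 ± 0.835 FPKM, from 4.58 ± 0.142 to 19.1 ± 0.986 FPKM and from 1.15 ± 0.107 to 6.40 ± 0.773 FPKM. The DNA-binding effector gene Tcf7l2 fell from 12.5 ± 0.518 to 10.4 ± 0.197 FPKM. Hedgehog genes, which regulate Foxf and Foxl genes in mesenchyme, were higher in 6 of 9 cases (median log2 difference 0.57). Bmp4 rose from 13.2 ± 0.989 to 43.3 ± 2.17 FPKM.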

How the data were processed

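RNA was profiled in 2 laminin-negative and 2 laminin-positive libraries. The authors deposited 1 table of FPKM values per library, per the file headers. TopHat2 2.1.1 and Cufflinks 2.2.1 are named, with no role given, per the submitters' processing notes. The aligner's build, the annotation, the strand setting and any scaling step were not given in the sources. Loci of 99.6% of 21203 rows with a unique symbol overlapped the GENCODE M21 gene of that symbol, so GRCm38 coordinates are given. Rows were tested with at least 1 FPKM in at least 2 libraries (12348), as log2(FPKM + 1), with limma 3.58.1 (R 4.3.3), intensity trend, two-sided, Benjamini-Hochberg adjusted over all tested rows at 0.05. The pseudocount understates changes of low genes. Some called list genes also passed the filter through 1 population only, which fixed their direction. Besides those named in the results, these were Hsd3b6 (Leydig list) through laminin-negative libraries. Through laminin-positive libraries they were Rsph1 (motile cilium), Epcam (rete testis and epithelium), and Csf1r, C1qa, C1qb and C1qc (macrophage). The fit has 2 residual degrees of freedom, with prior ones at a median of 8.21, and was tested on simulated data. The simulated variances were drawn in the form that the fit assumes, so that test cannot judge variance sharing. An exact permutation test of 2 against 2 cannot go below p = 0.333. Folds are ratios of mean FPKM, and ± is the SD of 2 libraries. Replicates shared an identical value above 0 in 0 and 1 rows. Members, gene lists, markers and tests were chosen with earlier results of these data known. Members got library values and tests where called with a log2 difference of at least 0.5 and a mean of at least 3 FPKM, or where among the 10 highest, and some others are given in brief. From each list, up to 3 called genes in each direction with a mean of at least 3 FPKM and the largest differences are named. Some genes that this rule names are not reported here. The Hedgehog list also held Hhip (14.2 and 58.9 FPKM) and Ptch1 (147 and 329 FPKM). Other marker lists had few tested genes or low sums: macrophage sums were 5.00 to 8.13 and 43.8 to 51.2 FPKM (6 of 6 tested higher), Schwann and glial 84.7 to 85.5 and 10.9 to 11.4 FPKM (mostly S100b in laminin-negative and Ngfr in laminin-positive libraries), lymphatic endothelial 173 to 191 and 78.2 to 80.6 FPKM (mostly Pdpn), T, B and mast cell 38.1 to 39.8 and 2.28 to 3.00 FPKM (mostly Kit), rete testis and epithelium 1.54 to 1.78 and 3.17 to 4.85 FPKM, and erythroid 0.569 to 0.641 and 0.108 to 1.16 FPKM. Alternatives changed the pseudocount, filter, trend, variance sharing, scaling, replicate block and libraries.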

Additional observations from a re-analysis of the deposited data

How the results depend on the processing

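Without variance shared across genes, limma called 1346 of all genes higher and 1211 lower (3288 and 3245 in the main analysis). It called 3 Fox genes higher and 0 lower, and 1 Sox gene higher and 1 lower. With no adjustment of p, 8 Fox genes were higher and 2 lower, and the share of all genes at that threshold is not given here. Of the list genes, 26 were higher and 15 lower (51 and 28). Of the 20 called members, 5 kept their call (Foxo4, Foxp1, Foxs1, Sox3 and Sox18). With equal FPKM sums the median log2 difference of all genes became 0.12, the split of all genes 4255 higher to 2382 lower (64.1% higher against 50.3%), and list genes called lower numbered 18, while the 20 member calls held. Lower Sox genes numbered 2 under quantile normalization, by the addition of Sox9. Deviations of same-numbered libraries correlated at r = 0.00809 across genes, so the numbers are not shown to pair the samples. With the replicate block, lower Sox genes numbered 2, and the 20 member calls held. Leaving out 1 library gave 10 to 12 Fox genes higher, 2 to 3 lower, 3 to 5 Sox genes higher and 1 to 2 lower, where the lone library is assumed to vary like the others. None of the named member genes reversed direction under the 12 alternatives. The cause of these changes was not tested. Depth limits members below about 0.1 FPKM.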
